A study of Rattus norvegicus with 15 samples.

Results

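The olfactory receptor genes on rat chromosome 1 that lie away from the beta-globin gene Hbb were followed in the epithelium of the nose that holds the odor-sensing neurons. They were taken as the array probes, controls left out, whose gene name begins with Olr and whose position is on chromosome 1 more than 3 Mb from the start of the Hbb probe (base 161701424 of the rat genome build rn3). Name and position alone decided membership, and no measured value was used. The rule found 127 probes for 126 genes, since Olr367 has 2 probes, among 1112 olfactory receptor probes and 41012 probes in all. Another 142 receptor probes lay on chromosome 1 within 3 Mb of Hbb, and 843 lay on other chromosomes or were unplaced.

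The tissue came from 8 untreated Brown Norway rats, an inbred strain, aged 6 weeks. Rats 1, 2, 5 and 6 were males and rats 3, 4, 7 and 8 were females, so each sex had 4 rats. RNA from each side of the nose was hybridized to an array of its own, and the sides are named only nostril A and nostril B in the labels. Male rat 1 has nostril A alone, the other 7 rats have both nostrils, and 15 arrays resulted. Which letter stands for the left side, and which supplier sent which rat, is not in the labels, so sides are compared here by letter and suppliers are not compared. RNA of the whole epithelium was measured, so fewer neurons that use a receptor and less receptor RNA in each neuron cannot be told apart.

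Olfactory receptors are membrane proteins of the ciliated sensory neurons that bind odorants and activate an olfactory G protein. Each mature neuron is known to use a single allele of a single receptor gene, so each receptor is made by a small share of the neurons. Receptor genes lie in clusters along the chromosomes, neighbors are often close relatives, and class II receptors are known to be used in zones that run from dorsal to ventral through the epithelium.

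Levels are given as the log2 of the probe intensity over the median intensity of its array, so a level of 0 is the array median. Values under 0.1 of the median, a level of -3.32, were raised to it as a floor. The array medians ran from 57.36 to 83.39 intensity units, and between 26233 and 28741 of the 41012 probes were well above background. The arrays lay on 4 slides, and except for slide 1 (males 1 and 2 and nostril A of female 3) each slide held 1 sex. Omp, the marker of mature olfactory neurons, stayed between 7.34 and 7.69 on all 15 arrays. The number of arrays limits the precision of every comparison.

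By current RefSeq names (assembly GRCr8), 124 of the 127 probes belong to class II receptors and 0 to class I, the families numbered 51 to 56. The other 3 are Olr35, Olr36 and Olr385: the first 2 keep names without a family, and Olr385 was not matched. Olr10 and Olr11 carry the same current name, Or5ae1. Family 5 was the largest with 58 probes, 26 of them of subfamily 5P and 21 of subfamily 5B, and subfamily 13A followed with 14.

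Sorted by position, with a new cluster wherever the next member lay over 1 Mb away, the members fell into 8 groups. Olr1 stood alone at 64299968. The Olr3 to Olr8 cluster (chr1:65821829-65884923) holds 5 probes, 4 of them of subfamily 6Z. The Olr10 to Olr34 cluster (chr1:141231244-143001569) holds 16 probes, 11 of them of family 14. The 3 probes of the Olr35 to Olr37 cluster (chr1:157154054-157201807) are the last members before Hbb. Beyond Hbb, the Olr235 to Olr285 cluster (chr1:165350481-166659465) holds 30 probes, all but 4 of subfamily 5P. The Olr286 to Olr315 cluster (chr1:200115886-201008017) holds 22 probes, led by the 14 of subfamily 13A and the 5 of 12J. The largest, Olr318 to Olr384 (chr1:214830054-217228893), holds 49 probes in 2.40 Mb, with the 21 of subfamily 5B, 5 of 5AN and 5 of 9I. Olr385, at 258329636, stood alone near the far end.

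At the 3 Mb border the nearest members were Olr37, 4.50 Mb from Hbb, and Olr235, 3.65 Mb from it. The nearest receptors left out were Olr39 at 1.55 Mb and Olr234 at 2.85 Mb. Olr37, Olr39 and Olr234 were well above background on 15 arrays, and Olr235 on 0.

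The probes are 60 bases long, and close relatives can share most of one. For each member the best match to any other receptor probe of the array ranged up to 50 bases, with a median of 34, and 0 members reached 57 bases. The 4 closest pairs of members are printed because they show how much of a probe can be shared by receptors detected on different numbers of arrays, and they were chosen after their values were seen. Capitals mark the bases shared with the partner, and positions are in rn3.
Olr300 (chr1:200578298-200578357, plus strand): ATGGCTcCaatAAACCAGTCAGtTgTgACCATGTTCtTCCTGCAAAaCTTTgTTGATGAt
Olr303 (chr1:200633659-200633718, minus strand): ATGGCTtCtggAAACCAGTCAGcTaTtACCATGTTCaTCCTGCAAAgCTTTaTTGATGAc
Olr305 (chr1:200709900-200709959, plus strand): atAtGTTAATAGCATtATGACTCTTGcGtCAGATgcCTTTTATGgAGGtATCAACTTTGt
Olr308 (chr1:200826870-200826929, plus strand): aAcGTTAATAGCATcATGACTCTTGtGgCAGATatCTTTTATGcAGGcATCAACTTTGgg
Olr349 (chr1:216334649-216334708, minus strand): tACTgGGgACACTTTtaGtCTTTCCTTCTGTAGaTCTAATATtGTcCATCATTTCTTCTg
Olr358 (chr1:216491621-216491680, minus strand): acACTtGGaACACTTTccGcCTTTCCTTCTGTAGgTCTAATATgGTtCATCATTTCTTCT
Olr278 (chr1:166243155-166243214, minus strand): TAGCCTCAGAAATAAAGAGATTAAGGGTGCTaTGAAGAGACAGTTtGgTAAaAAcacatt
Olr279 (chr1:166271509-166271568, minus strand): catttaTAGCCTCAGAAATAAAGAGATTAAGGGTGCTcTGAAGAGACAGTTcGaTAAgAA

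Olr300 and Olr303, 2 receptors of subfamily 12J whose probes start 55.4 kb apart, share 49 of 60 bases without any shift. Olr300 was well above background on 15 arrays with levels of 0.74 to 1.66, and Olr303 on 2 arrays only. Olr305 and Olr308, both of subfamily 13A, also share 49 bases, at a shift of 1 base, and were detected on 15 and 10 arrays. Olr349 and Olr358 of subfamily 5B share 50 bases and were detected on 2 and 13 arrays. Olr278 and Olr279 of subfamily 5P also share 50 bases and were detected on 11 and 9 arrays. Over 15 arrays the levels of Olr278 and Olr279 had a correlation of 0.88, a description over arrays that share rats and slides.

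The 2 probes of Olr367, a receptor of subfamily 5B, lie in different stretches of the gene and are printed because they disagree on its call.
Olr367 (chr1:216776005-216776064, plus strand): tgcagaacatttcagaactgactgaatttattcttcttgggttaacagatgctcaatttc
Olr367 (chr1:216776278-216776337, plus strand): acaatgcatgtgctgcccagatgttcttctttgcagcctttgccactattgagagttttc
The first was well above background on 8 arrays and the second on 15, and over the 15 arrays their levels had a correlation of 0.78. The second was brighter on every array. Since probes of 1 gene can differ by this much, the level of one receptor is not set against that of another here.

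A member was called expressed when its probe was well above background on at least 11 of the 15 arrays, weakly expressed on 1 to 10 and not expressed on 0, the classes used by the study. By this count 76 of the 127 probes (59.8%) were expressed. Another 25 (19.7%) were weakly expressed, and 26 (20.5%) were not expressed. Over all 41012 probes 65.1% were expressed, and over the 985 other olfactory receptor probes 65.8%. Of the receptors within 3 Mb of Hbb 54.2% were expressed, and of those on other chromosomes 67.7%. The members thus lay between the receptors beside Hbb and those of the other chromosomes, and no test was made of these shares. Most expressed members, 61 of 76, were detected on all 15 arrays.

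The calls differed between clusters and families. The single probe of Olr1, 4 of 5 in the Olr3 to Olr8 cluster and 3 of 3 in the Olr35 to Olr37 cluster were expressed. In the Olr286 to Olr315 cluster 16 of 22 were expressed and 1, Olr289, was not expressed. The Olr10 to Olr34 cluster had 7 of 16 expressed and 6 not expressed, the Olr235 to Olr285 cluster 15 of 30 and 7, and the Olr318 to Olr384 cluster 30 of 49 and 11. Olr385 was not expressed. By family, 10 of 11 members of family 10, 6 of 7 of family 9 and 11 of 15 of family 13 were expressed, against 27 of 58 of family 5 and 5 of 11 of family 14. Subfamily 14A had 1 of 6 expressed and subfamily 14C 3 of 4, within the same cluster.

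**Figure D1:**
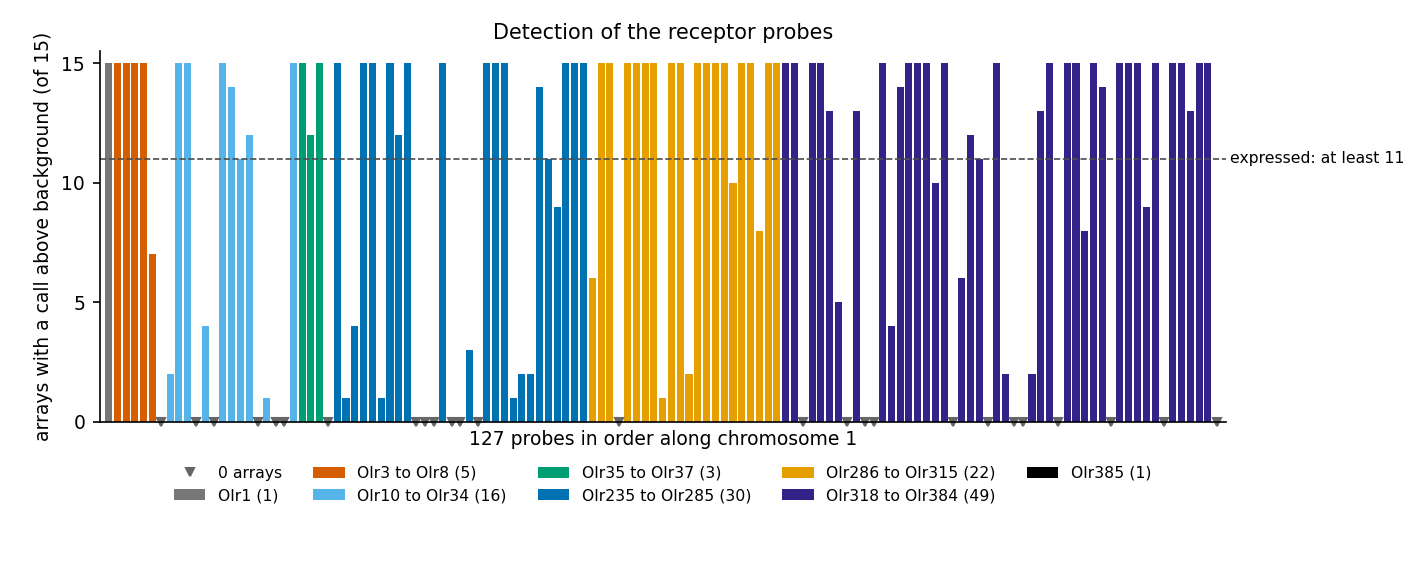
Number of the 15 arrays (vertical axis) on which each of the 127 probes was well above background, with the probes in order along chromosome 1 and colored by cluster; triangles mark the 26 probes detected on 0 arrays and the dashed line the 11 arrays needed for a call as expressed. Of the bars 61 reach 15, and probes at 0 lie among them in the Olr10 to Olr34, Olr235 to Olr285, Olr286 to Olr315 (Olr289) and Olr318 to Olr384 clusters and at Olr385.

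The base composition of the probes moved with the calls. The mean GC content was 42.08% ± 4.88 (SD, n = 76) for expressed members, 39.07% ± 5.09 (SD, n = 25) for weakly expressed ones and 38.53% ± 2.88 (SD, n = 26) for those not expressed. The other receptor probes of the array had 41.08%, 39.60% and 38.56% in the same order. The part of base composition in the calls was not tested.

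Among the 25 weakly expressed members, 5 were seen on a single array and 6 on 2. Only on male arrays were 6 of them seen (Olr11, Olr239, Olr244, Olr299, Olr303, Olr357) and only on female arrays another 6 (Olr16, Olr29, Olr270, Olr271, Olr272, Olr332). Seen in 1 sex were thus 48% of the weakly expressed members (24% on male and 24% on female arrays), near the 50.9% over all 4568 weakly expressed probes (19% and 31.9%) and beside 39.5% of the other weakly expressed receptors (8.28% and 31.2%). None of the 12 was detected on more than 4 arrays. Setting the mean of the sex that showed the receptor against the dimmest signal that still counted as detected in the other sex gave a bound above 1 for 3 of them. For Olr332, detected on 4 female arrays, the bound was 1.18-fold toward females, and 1.02-fold when rat 4 was left out. The bound of at least 1.15-fold for Olr11 in males rested on nostril A of rat 1 (level -0.49, against -2.65 or below on the other male arrays), and without rat 1 no fold was left. The bound for Olr16 was 1.01-fold toward females, and no fold was left without rat 1, 3, 4 or 5. These 12 were too dim for the tests across probes. Since they were picked for calls in 1 sex, the direction of these folds was set by the choice. No sex difference is read from them.

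Olr303 of subfamily 12J and Olr357 of subfamily 5B were the weakly expressed members with the same call in both nostrils of every rat. Both were well above background in the nostrils of male rat 2 alone. By the flag for positive and significant signal they were seen on 14 and 15 arrays. Olr303 had levels of -1.82 in nostril A and -2.46 in nostril B of rat 2. On the 13 other arrays its level was between the floor of -3.32 and -2.39, so nostril A of rat 2 stood above all others and nostril B did not. Olr357 had levels of -1.77 and -2.04 in rat 2, above the -3.32 to -2.27 of the 13 other arrays.

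Between 68 members (nostril A of rat 6) and 91 members (nostril B of rat 4) were detected on an array. These were 53.5% and 71.7% of the members, against 63% and 76% of the other receptor probes and 64.7% and 70.1% of all probes on the same arrays. On all 15 arrays the share was lower for the members than for the other receptors. Of the 127 probes, those detected in only 1 nostril of a rat numbered from 6 in rat 7 (4.72%) to 16 in rat 5 (12.6%). The share over the other receptor probes was 5.89% in rat 7 and 8.73% in rat 5 and ran up to 9.14%, in rat 3, where the members had 7.87%. In rats 2, 3, 4 and 6 most of these were seen in nostril B alone (12 of 14, 10 of 10, 12 of 14 and 11 of 14), whereas rats 5 and 8 had more in nostril A alone (9 of 16 and 8 of 11). The arrays as a whole ran the same way in rats 2, 3 and 4, where the detected share was higher in B for the other receptors (66.5% in A and 72.9% in B, 69.6% and 75.3%, 68.5% and 76%) and for all probes (67.2% and 69.5%, 66.1% and 68.4%, 68.3% and 70.1%). In rat 6 it was 63% and 63.5% for the other receptors and 64.7% and 64% for all probes.

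The 10 members named for the signal of their probes, in order along the chromosome, were Olr3 (mean level 2.14), Olr4 (2.59), Olr13 (2.65), Olr304 (2.53), Olr307 (3.37), Olr309 (3.97), Olr315 (1.94), Olr323 (3.59), Olr337 (4.53) and Olr377 (2.29). These are signals of different probes, and no order of the receptors' RNA is read from them. All were detected on all 15 arrays. The probe of Olr337, now Or5a3, is shown because Olr337 was named both here and in the comparison of the sexes.
Olr337 (chr1:215491727-215491786, plus strand): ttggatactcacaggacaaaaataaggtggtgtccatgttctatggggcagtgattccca
Its level ran from 3.86 in nostril B of rat 5 to 5.21 in nostril A of rat 4, with a median of 4.51. According to the array's own annotation 7 member probes match 2 receptor transcripts each, all 7 were detected on 15 arrays, and 4 of them are among these 10 (Olr4, Olr304, Olr307 and Olr309). The signal of those 7 can hold both receptors.

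Of the 127 members, 83 were well above background on at least 7 arrays and entered the tests across probes. They comprise the 76 expressed members and 7 weakly expressed ones (Olr8, Olr279, Olr308, Olr312, Olr339, Olr367 with its dimmer probe, and Olr376). After subtracting each probe's own mean, the median member level was highest in nostril A of rat 1 (0.27) and nostril B of rat 4 (0.24) and lowest in nostril B of rat 8 (-0.26). The 680 other receptors tested had 0.29, 0.31 and -0.37 on the same arrays, and all probes tested -0.05, -0.01 and 0.01. Omp, centered in the same way, was at -0.04, -0.12 and -0.05 there, below its own mean on all 3. Without rat 8 the distance from the highest to the lowest array fell from 0.53 to 0.37.

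The clusters did not share this pattern, and 2 of them ran against the others. In the Olr235 to Olr285 cluster the median of the 16 tested members was 0.52 in nostril A of rat 1, 0.49 in nostril B of rat 3 and -0.54 in nostril B of rat 8. The 33 tested members of the Olr318 to Olr384 cluster had medians of 0.41, 0.36 and -0.43 on these arrays. The Olr3 to Olr8 cluster had -0.56, -0.07 and 0.49, and the Olr286 to Olr315 cluster -0.24, -0.18 and 0.29. On these 3 arrays the 2 clusters thus lay on the other side of their means from the larger clusters.

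**Figure D2:**
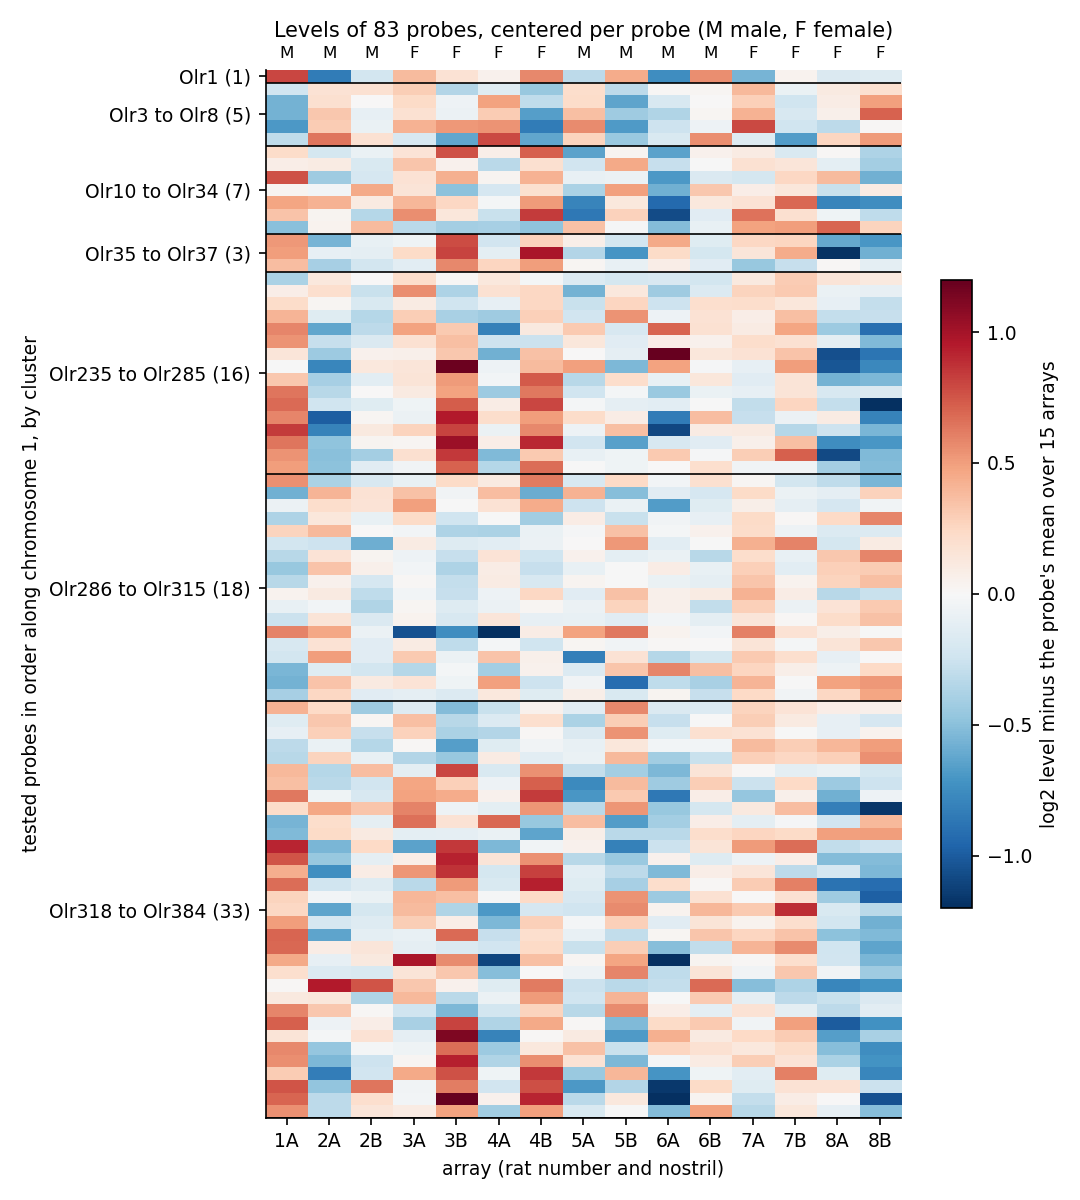
Level of the 83 tested probes (rows, in order along chromosome 1, with the number per cluster in brackets) on the 15 arrays (columns, rat number and nostril, M male and F female), as log2 minus the probe's mean over 15 arrays; red is above and blue below that mean, and colors no longer deepen past the ends of the scale. The columns 1A, 3B and 4B are red and 8A and 8B blue in the Olr235 to Olr285 and Olr318 to Olr384 clusters, and the Olr3 to Olr8 and Olr286 to Olr315 clusters are mostly blue in 1A and red in 8B.

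Across the 15 arrays, pairs of members in the same cluster had a median correlation of 0.33 (835 pairs, 72.2% positive), and pairs from different clusters 0.03 (2568 pairs, 51.6% positive). Pairs of the same subfamily had 0.42 (242 pairs), and pairs of the same cluster but different subfamilies 0.30 (594 pairs). These are descriptions over arrays that share rats, nostrils, slides and the overall receptor level. With the members' median removed from each array the values were 0.15 within and -0.10 between clusters. With the 8 rat means they were 0.42 and 0.07, and with the 7 differences between the nostrils of a rat 0.26 and -0.02.

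Within clusters, the median correlation was 0.69 in Olr3 to Olr8, 0.51 in Olr35 to Olr37, 0.49 in Olr10 to Olr34, 0.47 in Olr235 to Olr285, 0.32 in Olr318 to Olr384 and 0.18 in Olr286 to Olr315. Between clusters the sign of the median correlation differed. The Olr3 to Olr8 cluster had a median of -0.43 with Olr235 to Olr285 and -0.37 with Olr318 to Olr384, but 0.27 with Olr286 to Olr315. The Olr235 to Olr285 cluster had 0.40 with Olr318 to Olr384 and -0.26 with Olr286 to Olr315, which lies between them. The medians of Olr286 to Olr315 with Olr10 to Olr34 and Olr318 to Olr384 were nearer 0, at -0.07 and -0.15. Over the 7 nostril differences part of these signs was lost. Olr286 to Olr315 then had 0.08 with Olr10 to Olr34 and -0.04 with Olr318 to Olr384, and Olr35 to Olr37 had -0.68 with Olr1, -0.38 with Olr10 to Olr34 and -0.17 with Olr318 to Olr384, against 0.26, 0.23 and 0.38 over the 15 arrays.

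The 83 tested receptors beside Hbb, which are no members, were set against the clusters in the same way. Over the 15 arrays their median correlation was 0.56 with Olr35 to Olr37, 0.46 with Olr235 to Olr285, 0.29 with Olr318 to Olr384, 0.17 with Olr1 and 0.16 with Olr10 to Olr34, and -0.37 with Olr3 to Olr8 and -0.25 with Olr286 to Olr315. Genes known to mark zones of the epithelium were looked at after these patterns were seen. Nqo1, an enzyme of the dorsal zone, was at 0.69 relative to its own mean in nostril B of rat 3, 0.60 in nostril A of rat 6, 0.50 in nostril B of rat 4, 0.38 in nostril A of rat 3 and 0.24 in nostril A of rat 1. It was lowest, at -0.58, in both nostrils of rat 8. The Olr235 to Olr285 cluster was at 0.49, -0.11, 0.37, 0.15 and 0.52 on the first 5 of these arrays and at -0.28 and -0.54 in rat 8. Nqo1 and the cluster lay on different sides of their means in nostril A of rat 6, in nostril B of rat 7 (-0.11 against 0.28) and in nostril A of rat 7 (-0.15 against 0.09). The 3 probes of Robo2, an axon guidance receptor that neurons of the dorsal zone use most, were highest in nostril B of rat 3 (0.47) or nostril B of rat 4 (0.56 and 0.29) and lowest in nostril A of rat 8 (-0.35) or nostril A of rat 6 (-0.36 and -0.25). Ncam2, an adhesion molecule of the other zones, had 2 tested probes, 1 of them highest in nostril A of rat 2 (0.45) and lowest in nostril A of rat 6 (-0.57), the other highest in nostril A of rat 3 (0.31) and lowest in nostril A of rat 1 (-0.25). Another Ncam2 probe and the probe of Nrp2, a guidance receptor of the other zones, were detected on 3 and 2 arrays and were not tested. The part of the dissected zones in the members' levels was not tested.

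The pairs of members with the most alike levels were named after their values were seen. Olr282 (subfamily 10A) and Olr340 (5B), in different clusters, had a correlation of 0.95 over 15 arrays, 0.96 over rat means and 0.91 over nostril differences. Olr300 (12J) and Olr315 (13A) had 0.94, Olr35 and Olr377 (9Q) 0.93, Olr4 and Olr6 (both 6Z) 0.92, and Olr331 and Olr334 (both 5AN) 0.92. The most opposed pair was Olr276 (5P) and Olr309 (13A) with -0.89. Close relatives and distant receptors both occur among the most alike pairs.

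Whether the nostrils of a rat differed was tested in the 7 rats with both, with the rat as a block. At a false discovery rate of 1%, limma called 0 of the 83 members between nostrils A and B, and over all 27574 probes tested it called 0 (0%). The lowest adjusted p-value of a member was 0.781 (limma, Benjamini-Hochberg). At an unadjusted p-value under 0.05 there were 21 members (25.3%), against 1623 probes (5.89%) in all and 111 of the 680 other receptors (16.3%). Of these 21, 12 were higher in B (14.5% of 83 members, against 3.43% of all probes) and 9 higher in A (10.8%, against 2.45%). The median difference, nostril B minus nostril A, was 0.13 over the members, 0.12 over the other receptors and 0.01 over all probes tested. The members' median was 0.065 without rat 4 and 0.19 without rat 8, and with normexp background it was 0.057, where all probes had -0.05. Without a rat block the limma fit gave 11 members at an unadjusted p-value under 0.05 and called 0.

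The direction of these 21 divided by cluster. All 9 that were higher in A belonged to the Olr3 to Olr8 cluster (Olr3) and the Olr286 to Olr315 cluster (Olr288, Olr300, Olr302, Olr304, Olr307, Olr309, Olr313 and Olr315). All 12 that were higher in B belonged to Olr1, to the Olr235 to Olr285 cluster (Olr264, Olr268, Olr283 and Olr285) and to the Olr318 to Olr384 cluster (Olr327, Olr331, Olr334, Olr363, Olr380, Olr382 and Olr384). They were named after their values were seen, and members that move together are not independent. The number rested on single rats, with 9 left without rat 4, 13 without rat 2 and 34 without rat 8. Those higher in A in the Olr3 to Olr8 and Olr286 to Olr315 clusters fell from 9 to 1 without rat 7, where 1 other member of these clusters was higher in B, so that the clusters then showed no division. They numbered 2 without rat 2 or rat 4, 3 without rat 3 or with no rat block, and 4 without rat 5 or with normexp background. Without rat 8 there were 13, and 1 was higher in B. In the other clusters 0 members were higher in A under all 16 alternatives, and between 7 and 20 were higher in B.

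Olr264, a 5P receptor whose probe also lists the relative Or5p69b, had the lowest p-value. In rats 2 to 8 in turn its levels were -0.33, 0.22, 0.04, -0.27, -0.03, -0.06 and -0.50 in nostril A and -0.06, 0.57, 0.80, 0.28, 0.21, 0.22 and -0.48 in nostril B. Nostril B was higher in all 7 rats, although the ranges overlapped, and in rat 8 the nostrils differed by little. The mean difference was 0.35 (SE 0.087, limma, unadjusted p = 0.00259, adjusted p = 0.781). Over 17 alternatives it ran from 0.17 to 0.41, with adjusted p-values of 0.332 and above.

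Olr334, now Or5an1b, had levels of -1.31, -0.77, -1.21, -1.96, -2.11, -1.72 and -1.83 in nostril A and -1.45, -0.81, -0.42, -0.94, -1.18, -1.20 and -1.32 in nostril B of rats 2 to 8. It was higher in B in 5 of 7 rats and almost equal in rats 2 and 3. The difference was 0.51 (SE 0.15, limma, unadjusted p = 0.00814, adjusted p = 0.781), and 0.18 with normexp background. Olr1 had -1.90, -0.68, -1.01, -1.37, -1.80, -1.62 and -1.23 in nostril A against -1.28, -0.89, -0.49, -0.62, -0.50, -1.02 and -1.22 in nostril B. Nostril B was higher in 6 of 7 rats, most in rat 6, by 0.51 on average (SE 0.16, limma, unadjusted p = 0.0111, adjusted p = 0.781), and by 0.18 with normexp background.

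The subfamilies with 3 or more tested members were described without a test. The median difference, B minus A, was 0.53 for the 4 tested members of 9I (4 of 4 higher in B), 0.46 for the 3 of 5AN (3 of 3), 0.33 for the 3 of 10A (3 of 3) and 0.25 for the 13 of 5B (12 of 13). It was -0.33 for the 4 of 6Z (0 of 4 higher in B) and -0.14 for the 12 of 13A (2 of 12). The 4 of 12J, which lie in the same cluster as 13A, were divided, with a median of 0.01 and 2 of 4 higher in B. The 12 of 5P had a median of 0.13 with 8 of 12 higher in B, and the 3 of 14C 0.24 with 2 of 3. The members' median difference was largest in rat 4, at 0.48 with 62 of 83 members higher in B, and lay between -0.10 and 0.22 in the other 6 rats. In rat 8 the Olr3 to Olr8 cluster (0.32) and the Olr286 to Olr315 cluster (0.13) were higher in B, against their direction in most rats. The zone markers were compared between nostrils after these values were seen. The 3 probes of Robo2 were higher in B by 0.19 to 0.26 (limma, unadjusted p = 0.00396 to 0.00539, adjusted p = 0.781), and Nqo1 by 0.08 (limma, unadjusted p = 0.471). The 2 tested probes of Ncam2 had differences of -0.05 and 0.0014 (limma, unadjusted p = 0.579 and 0.987). The part of the dissected zones in the nostril differences was not tested.

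**Figure D3:**
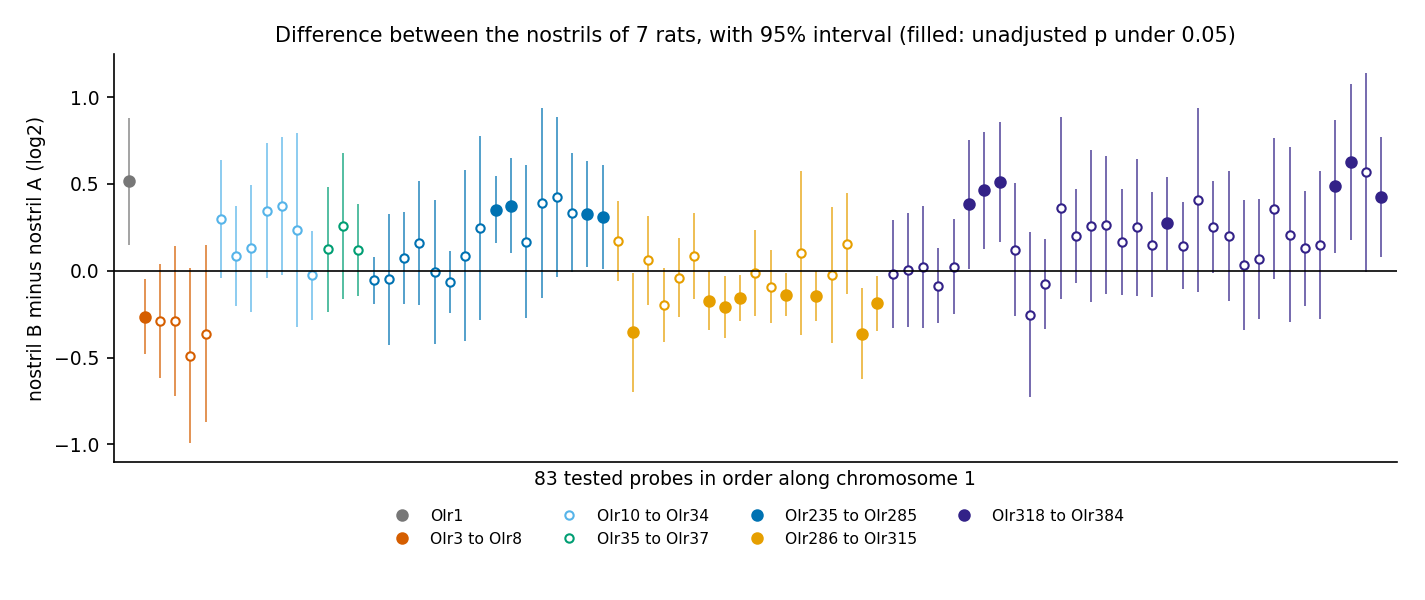
Difference in level between nostril B and nostril A (log2, mean of 7 rats, vertical axis) for the 83 tested probes in order along chromosome 1, colored by cluster; bars are 95% intervals from limma and filled points have an unadjusted p-value under 0.05. The 9 filled points below 0 lie in the Olr3 to Olr8 and Olr286 to Olr315 clusters, and the 12 above 0 in Olr1 and the Olr235 to Olr285 and Olr318 to Olr384 clusters.

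Whether the nostril difference depended on sex was tested with an interaction term in limma, which called 0 of 83 members and 0 of 27574 probes (0%). At an unadjusted p-value under 0.05 there were 7 members (8.43%), against 2.36% of all probes.

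Males and females were compared by the means of the 4 rats of each sex. At a false discovery rate of 1%, limma called 0 of the 83 members, beside 12 of 27625 probes (0.0434%), and at 5% again 0 members, beside 20 probes (0.0724%). At an unadjusted p-value under 0.05 there were 6 members (7.23%), against 4731 probes (17.1%) in all and 56 of 680 other receptors (8.24%). Of the 6, 4 were higher in females (4.82%, against 12.2% of all probes) and 2 higher in males (2.41%, against 4.9%). The methods' t-test also called 0 members and gave 3 at an unadjusted p-value under 0.05. The median difference, female minus male, was 0.05 over the members, 0.07 over the other receptors and 0.01 over all probes tested. The sign of the members' median rested on single rats: it was -0.03 without rat 3, -0.02 without rat 2 and -0.0091 without rat 6, and 0.12 without rat 1. Leaving out rat 5 left 3 members at an unadjusted p-value under 0.05. With slide as a block, the sexes are compared on slide 1 alone. There males 1 and 2 stand against nostril A of female 3, so no count is given.

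Olr297, a 12J receptor, had the lowest p-value and was the one named here that was higher in males. Its rat means were 1.08, 1.01, 0.98 and 0.82 in males 1, 2, 5 and 6 and 0.61, 0.58, 0.89 and 0.65 in females 3, 4, 7 and 8. Female 7 lay above male 6, so the sexes overlapped. The difference, female minus male, was -0.29 (SE 0.098, 95% interval -0.51 to -0.07, limma, adjusted p = 0.187). On slide 1, which held both sexes, its levels were 1.08, 1.20 and 0.81 on the 3 male arrays and 0.78 on the female array.

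Olr313 of subfamily 13A had rat means of -0.93, -0.14, -0.84 and -0.71 in males and -0.30, -0.24, -0.16 and 0.14 in females. Male 2 lay above all females but female 8. The difference was 0.51 (SE 0.18, limma, adjusted p = 0.199), and it was 0.21 with slide as a block and 0.26 with normexp background. Olr237 of subfamily 5P had -0.21, 0.24, -0.02 and -0.04 in males and 0.29, 0.22, 0.38 and 0.31 in females, a difference of 0.31 (SE 0.11, limma, adjusted p = 0.197) that was 0.20 with normexp background. Male 2 was the male inside the female range.

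Olr337 had rat means of 3.97, 4.58, 4.38 and 4.36 in males and 4.95, 4.64, 4.46 and 4.61 in females. Male 2 again lay within the females. The difference was 0.34 (SE 0.14, limma, adjusted p = 0.250). It was 0.22 without rat 1, and 0.81 with slide as a block, where nostril A of female 3 again stands alone for the females. Olr4 of subfamily 6Z had 2.01, 2.69, 2.38 and 2.49 in males against 2.67, 2.67, 2.61 and 2.87 in females, a difference of 0.32 (SE 0.13, limma, adjusted p = 0.270) that was 0.19 without rat 1. The highest male, rat 2, lay above 3 of the 4 females.

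**Figure D4:**
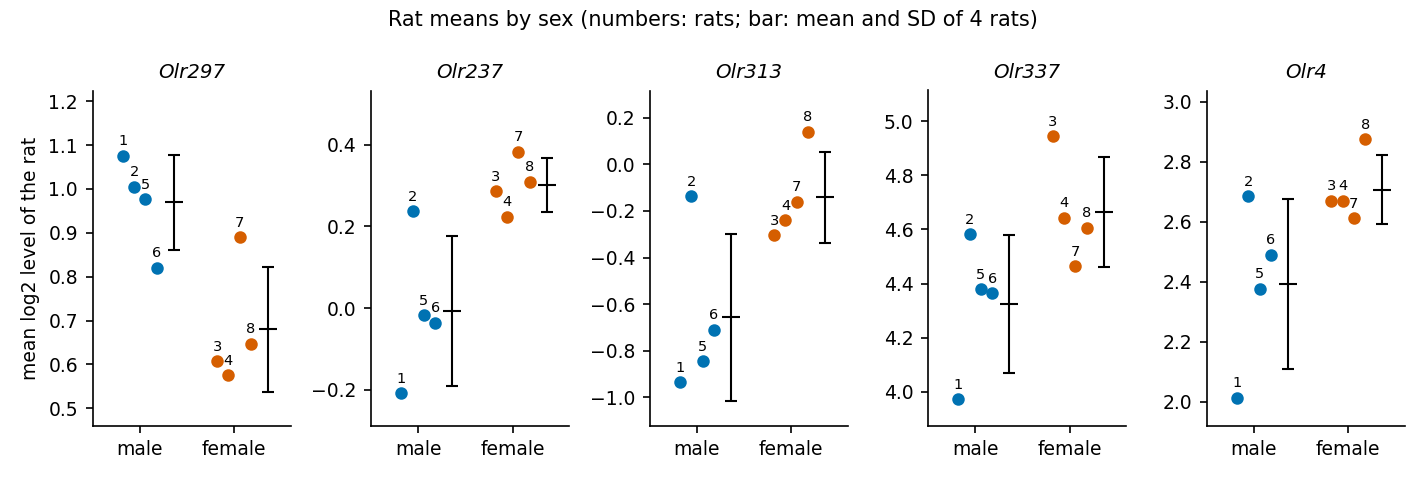
Rat means of the log2 level (vertical axis, scaled per gene) of the 5 members with the lowest p-values between the sexes, with blue points for the 4 males and orange points for the 4 females, numbered by rat; bars give the mean and SD of each sex. In Olr297 males 1, 2 and 5 lie above all females, and in Olr237, Olr313, Olr337 and Olr4 the female mean is the higher, with male 2 inside the female range.

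Differences between rats of the same sex were tested against the differences between the nostrils of a rat. At a false discovery rate of 1%, limma called 0 of the 83 members, beside 768 of 27574 probes (2.79%), and at 5% it called 4 members (4.82%), beside 16.1% of all probes and 4.71% of the other receptors. At an unadjusted p-value under 0.05 there were 24 members (28.9%), against 37.1% of all probes and 25.6% of the other receptors. The share of members was thus below that of all probes and near that of other receptors. Rats lay on different slides. Between rats of 1 slide 18 members (21.7%, against 17.1% of all probes) had an unadjusted p-value under 0.05 and 0 were called, and with slide as a random block 0 were called and 19 had an unadjusted p-value under 0.05.

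The 4 called at 5% were Olr34, Olr247, Olr365 and Olr340. Olr34, a family 14 receptor, had rat means of -1.20, -0.48, -0.52 and -0.998 in males 1, 2, 5 and 6 and -1.06, -1.13, -0.20 and -0.21 in females 3, 4, 7 and 8 (limma F-test, adjusted p = 0.0225). Females 7 and 8, on 1 slide, were high and females 3 and 4 low, and rats sharing a slide differed with an adjusted p-value of 0.320. Olr247 of subfamily 5P had 0.76, -0.01, 0.22 and 0.29 in males and 0.49, -0.03, 0.42 and -0.10 in females (limma F-test, adjusted p = 0.0303). Rat 1 was its highest and rat 8 its lowest, and the nostrils of rats 4, 6 and 7 nearly coincided.

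Olr365 of subfamily 5B had 0.47, -0.10, -0.21 and -0.63 in males and -0.36, -0.22, 0.27 and -0.66 in females (limma F-test, adjusted p = 0.0421). Olr340, also of 5B, had 0.73, -0.30, -0.41 and -0.07 in males and 0.48, 0.34, -0.01 and -0.54 in females (limma F-test, adjusted p = 0.0423). Rat 1 was high and rat 8 low in both. Olr283 of subfamily 10A came next, with an adjusted p-value of 0.0535 (limma F-test) and rat means from -1.34 in rat 8 to -0.0033 in rat 1. None of the 4 passed 5% with slide as a block (limma, adjusted p = 0.131 to 0.320), with slide as a random block (0.0566 to 0.0844), with normexp background (0.139 to 0.659) or with no filter on dim probes (0.0536 to 0.115). The count at 5% also depended on single rats: it was 11 without rat 3, 9 without rat 4, 1 without rat 1 or rat 2, 2 without rat 8 and 0 without rat 7. Without rat 8 the members with an unadjusted p-value under 0.05 numbered 8.

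**Figure D5:**
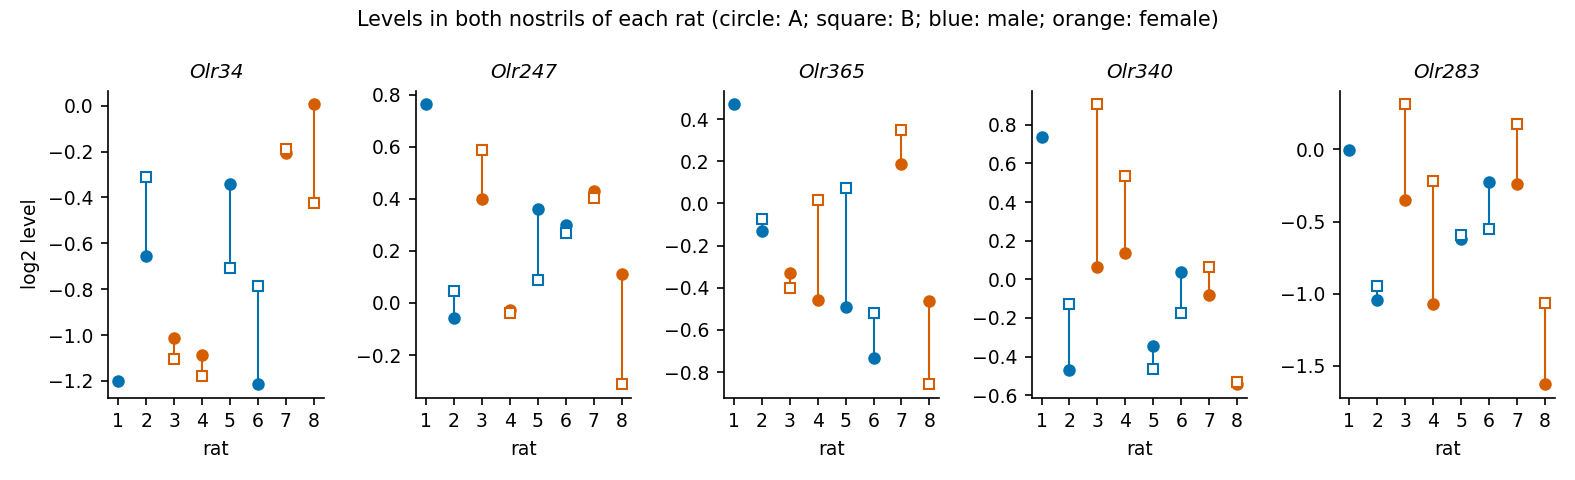
Log2 level (vertical axis, scaled per gene) in nostril A (circles) and nostril B (squares) of rats 1 to 8 for the 5 members with the lowest p-values between rats, blue for males and orange for females, with a line joining the nostrils of a rat. In Olr247, Olr340 and Olr365 rat 1 is the highest or near it and rat 8 at or near the lowest, and in Olr34 rats 7 and 8 lie above rats 3 and 4.

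The study's text names 4 of the members, Olr246, Olr263, Olr336 and Olr382. It lists Olr246 and Olr263 as expressed in newborn litters but not in adult or old rats. Olr336 and Olr382 are given there as more strongly expressed at birth. The adults of that comparison were a separate set of older male rats, so the calls here are not set against that list. Olr246 of subfamily 5P was detected on 12 arrays, with levels from -2.38 in nostril B of rat 8 to -0.78 in nostril A of rat 6 and a median of -1.36. Olr263, also of 5P, was detected on 15 arrays and ran from -2.04 in nostril A of rat 8 to 0.16 in nostril B of rat 3 with a median of -1.03. Olr336 of subfamily 5AN ran from -1.47 in nostril B of rat 8 to 0.29 in nostril A of rat 3 with a median of -0.18. These 3 were lowest in rat 8, and between rats their adjusted p-values were 0.0846, 0.205 and 0.0659 (limma F-test). Olr382 of subfamily 9I, added after its values were seen, was detected on 13 arrays and ran from -2.62 in nostril A of rat 6 to -0.69 in nostril B of rat 4 with a median of -1.50. It was not lowest in rat 8 (-1.28 and -1.72), and its adjusted p-value between rats was 0.559 (limma F-test).

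The spread between nostrils and the spread between rats were set side by side, although they are unlike measures. The nostril SD is that of single arrays. The rat SD is that of rat means, mostly over both nostrils, and these means still hold part of the nostril spread. Neither their sizes nor the share of probes with the larger rat SD thus shows by itself how far rats differ. The SD between the nostrils of a rat had a median of 0.34 over the 83 members, and the SD between rats of a sex 0.33, the latter being the larger for 39 of them (47%). The other receptors had medians of 0.37 and 0.35, and all probes tested 0.12 and 0.15, with the rat SD larger for 62%. Between rats of 1 slide the median SD was 0.34 for the members, larger than the nostril SD for 48.2% of them, and 0.10 for all probes, larger for 40.7%, so the order of the shares turned round. Dim probes vary more, so the sets were also compared within ranges of mean level. Among probes with a mean level above 0 the medians were 0.28 and 0.23 for 31 members, 0.33 and 0.31 for 348 other receptors and 0.10 and 0.13 for all 20416 probes. That range has no upper end, so levels within it need not be alike. Between -1 and 0 they were 0.34 and 0.32 for members, 0.38 and 0.38 for other receptors and 0.18 and 0.19 for all probes. At -1 and below they were 0.43 and 0.43, 0.44 and 0.40, and 0.26 and 0.26. Olr237 varied least between nostrils (SD 0.092), and Olr383 of subfamily 9I most in both respects, with 0.68 between nostrils and 0.55 between rats.

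The genes through which these receptors signal were set beside them. Of a list of 25 gene names of odor transduction, receptor transport and receptor gene regulation, 20 had probes, and 29 of their 30 probes were tested. At 1%, limma called 0 of the 29 between the sexes, 0 between nostrils and 1 between rats, with 6, 1 and 14 at an unadjusted p-value under 0.05. Over all probes tested 2.79% were called between rats, and 17.1%, 5.89% and 37.1% had an unadjusted p-value under 0.05. The called probe belongs to Slc12a2, the chloride importer of the neurons (limma F-test, adjusted p = 0.000543), and with slide as a block or with normexp background it was not called. The other Slc12a2 probe had an adjusted p-value of 0.0270. The list's median difference between nostrils was 0.03, beside 0.13 for the members and 0.12 for the other receptors.

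Markers of the other cell types in the tissue were summed per array, as log2 of the summed levels. All 4 genes of immature neurons had probes on 15 arrays, with sums of 10.10 to 10.46, and the 5 genes of mature neurons 10.22 to 10.62. The 3 supporting cell genes with probes had 10.47 to 10.75 in males and 10.63 to 11.12 in females, and 0 of 3 were called between the sexes at 1%, with 2 of 3 higher in females at an unadjusted p-value under 0.05 (Ugt2a1 by 0.43, limma, adjusted p = 0.0825, and Cyp2g1 by 0.31, adjusted p = 0.0982). The 3 red blood cell genes with probes had 7.44 to 10.45 in males and 5.87 to 9.86 in females, and 2 of their 3 tested probes were called between rats at 1% (Hbb and Alas2, limma F-test, adjusted p = 0.00181 and 0.000792). Between the sexes 0 of these 3 probes were called at 1%, and 2 were lower in females at an unadjusted p-value under 0.05. Female minus male was -2.14 for Slc4a1 (limma, adjusted p = 0.146) and -1.41 for Hbb (limma, adjusted p = 0.290). Skeletal muscle genes reached 3.88 in nostril A of rat 7 and 1.81 in nostril A of rat 6 and were at -0.47 or below on the 13 other arrays. Bone genes had sums of 9.27 to 11.24, with 1 of 4 probes called between rats at 1% and 4 of 4 at 5%. Genes of motile cilia had sums of 8.40 to 9.004, basal cell genes 1.53 to 2.50 and genes of ensheathing and Schwann cells -0.18 to 2.44. The part of these cell types in the members' levels was not tested.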

How the data were processed

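Cy3-labeled RNA of 15 olfactory epithelia was hybridized to 15 Agilent arrays of rat genes (1 color). The authors deposited scanner files from Agilent Feature Extraction 9.5.1.1 that hold the background-subtracted intensity of each spot and a flag for signal well above background. A second deposited table holds ratio values, made by the authors, in which 99.95% of 20463 ratios lay within 2% of the intensity over the array median and then over the probe median. Here the processed intensity was divided by the array median, raised to at least 0.1 of it and taken to log2 (spots of a probe averaged). Positions are those of the files (rn3).

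Tests used limma 3.58.1 (eBayes with trend) in R 4.3.3 on probes well above background on at least 7 arrays, with Benjamini-Hochberg adjustment over all of them and two-sided p-values. Sexes were compared over the means of 8 rats, nostrils over 7 rats with the rat as block, and rats of 1 sex by an F-test against the difference between nostrils. The scripts were tested on simulated data.

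The members and gene lists were chosen with earlier results of these data known. Named are the 5 members with the lowest p between sexes, the 5 between rats and the 3 between nostrils, the 10 of highest mean signal, those nearest the 3 Mb border, the ends of each cluster, weakly expressed members with like calls in both nostrils of every rat, and Olr246, Olr263 and Olr336 from the study's text. Olr382, which that text also names, was added after its values were seen. Genes named outside this rule are not all marked in the text. Unmarked are Olr289, Olr383 and most of the weakly expressed members seen in a single sex. Alternatives were other scalings, normexp background (offset 50), the ratio table, other floors and filters, slide as a block and leaving out each rat. Proteins and supplier were not analysed here.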

Additional observations from a re-analysis of the deposited data

Results flagged for a closer look

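For each named member that was not at the floor on all arrays, both groups of 4 rats of a sex were searched for a rat that stands far from the other 3, which chance alone gives in about 1 group in 20. Of 66 groups 3 stood out, a number near what that rate alone gives. Olr309 was lowest in male rat 1, with a level of 3.778 against 3.96 to 3.99 in the other males. Olr384 was highest in male rat 1, with -0.2629 against -0.91 to -0.84 in the other males. Only nostril A of rat 1 was measured. Olr336 was lowest in female rat 8, with -1.298 against -0.10 to -0.04 in the other females, and both nostrils of rat 8 were low (-1.12 and -1.47).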

How the results depend on the processing

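Between sexes and between nostrils limma called 0 members at 1% under all alternatives run, leaving out each rat included. Between rats 0 were called under all alternatives but 2: at a false discovery rate of 5% there were 4, and with no filter on dim probes 2, which were Olr341, detected on 0 arrays, and Olr11, detected on 2, with nearly all values at the floor. Moving the border to 1 Mb from Hbb gave 119 expressed probes of 189 and to 5 Mb 58 of 94. Calling signal positive and significant gave 102 expressed, 24 weakly expressed and 1 not expressed member, and leaving out each rat gave 73 to 76 expressed.

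At an unadjusted p-value under 0.05, leaving out each rat gave 3 to 8 members between sexes, 8 to 33 between rats and 9 to 34 between nostrils. Between sexes there were 3 by the methods' t-test and 3 with no filter, and between nostrils 11 with no rat block. With the members' median removed from each array, the median correlation was 0.1536 within and -0.1023 between clusters, and leaving out each rat gave 0.27 to 0.37 and 0.0013 to 0.0727. The median SD between nostrils ran from 0.31 to 0.37 and between rats from 0.27 to 0.35. The distance between the highest and lowest array ran from 0.374, without rat 8, to 0.573, without rat 5, and was 0.584 with 75th percentile scaling. The transduction list had 1 probe called between rats, 0 with normexp background, 0 with slide as a block and 5 at 5%. The cause of these shifts was not tested. No order was read from members at the floor.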
